A study of Mus musculus with 8 samples.

Results

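The miR-17-92 and miR-106b-25 clusters are groups of microRNAs (miRNAs) cut from shared precursor transcripts, and their 9 main mature products were followed here in mouse liver. Members were taken by name from the array files: mmu-miR-17, mmu-miR-18a, mmu-miR-19a, mmu-miR-19b, mmu-miR-20a and mmu-miR-92a for miR-17-92, and mmu-miR-106b, mmu-miR-93 and mmu-miR-25 for miR-106b-25. The rule uses no values, but the choice was made with earlier results of these data known. The prefix mmu, for mouse, is left out below. They are 9 of the 567 mouse miRNAs on the array. Livers of 4 db/+ mice and 4 db/db mice were hybridised, 1 array per animal. Each array is taken as 1 animal, although the title of db/+ replicate 1 reads livers, in the plural. The db/db mice (C57BL/KsJ background) carry the diabetes mutation of the leptin receptor on both chromosomes and are obese and diabetic, and the db/+ controls carry it on 1 chromosome. Body weight and plasma glucose were higher in the diabetic animals, per the series text. The labels name no further treatment, and they give neither the age nor the sex of the animals. The whole liver was used, so fewer cells of a type and less RNA per cell cannot be told apart.

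A miRNA recognises messenger RNAs mainly through its seed, bases 2 to 8 from the 5′ end, and lowers their stability or translation. Both clusters arose from a common ancestor by duplication, and their members share seeds across clusters. miR-17-92, also known as oncomiR-1, is transcribed under the control of MYC and E2F factors and limits cell cycle inhibitors and the pro-apoptotic protein BIM. miR-106b-25 lies within the gene of Mcm7, a subunit of the replicative helicase, and targets many of the same messenger RNAs. Both clusters are known for their rise in proliferating liver cells and in hepatocellular carcinoma.

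The 9 mature sequences are shown because the seed sorts the members into families that cut across the clusters. They are RefSeq sequences of assembly GRCm38.p6, written 5′ to 3′ with the seed in capitals.
miR-17: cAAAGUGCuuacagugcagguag
miR-20a: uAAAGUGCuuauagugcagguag
miR-106b: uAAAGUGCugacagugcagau
miR-93: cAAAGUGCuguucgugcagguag
miR-18a: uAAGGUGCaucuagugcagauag
miR-19a: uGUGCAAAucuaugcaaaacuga
miR-19b: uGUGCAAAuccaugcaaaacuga
miR-92a: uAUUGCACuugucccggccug
miR-25: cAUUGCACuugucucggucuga
The first 4 have the miR-17 seed AAAGUGC, with miR-17 and miR-20a from one cluster and miR-106b and miR-93 from the other. miR-18a has AAGGUGC, a seed of its own among the members. miR-19a and miR-19b share GUGCAAA, which has no copy in miR-106b-25, and they differ at 1 position over their whole length. miR-92a and miR-25, again from different clusters, share AUUGCAC.

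The array files place the miR-17-92 members on the plus strand of chromosome 14 of mm9 within 804 bases, chr14:115442915-115443718. They place miR-106b, miR-93 and miR-25 on the minus strand of chromosome 5 within 472 bases, chr5:138606560-138607031. These positions are those of the stretches that the probes read at the 3′ end of each miRNA. The RefSeq gene records enclose all 3 miR-106b-25 members in Mcm7, and place miR-92a within the host gene Mir17hg. miR-19b and miR-92a have 2 gene copies each in RefSeq, the second on the X chromosome, so their signal can come from either copy.

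The arrays differed far more in brightness among the db/+ animals than among the db/db animals. The factor by which an array's miRNAs were brighter or dimmer than the common level ran from 0.210 to 5.63 among the db/+ arrays and from 0.847 to 1.06 among the db/db arrays. Between 91 and 255 mouse miRNAs were detected per db/+ array, and 133 to 166 per db/db array. All arrays shared a slide, with the db/db arrays in the first row and the db/+ arrays in the second, so row and strain cannot be told apart. Levels below are log2 scaled signal: background-subtracted intensity divided by the array's factor and floored at 2.20. A level can be compared between animals but not between miRNAs, whose probes differ in brightness. The hepatocyte list, which fits the labelled tissue, was detected in full (5 of 5 on all 8 arrays), with miR-122, the main hepatocyte miRNA, at 15.38 ± 0.70 in db/+ and 15.48 ± 0.058 in db/db (SD, n = 4). The muscle list was detected on no array (0 of 4).

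All 9 members were detected on at least 1 array, and 6 of them on all 8 arrays, as were 89 of the 567 mouse miRNAs. Members detected per array numbered 9, 8, 8 and 6 in db/+ and 8, 7, 8 and 7 in db/db. The test was limited to miRNAs found by the scanner software on every array of one strain or of both, which held for 7 members and 127 mouse miRNAs. miR-17 and miR-18a did not, and are given as values without a test.

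No tested member of either cluster passed the test between the strains. With limma and Benjamini-Hochberg adjustment over 127 miRNAs, 0 of the 7 tested members passed an adjusted p of 0.05, while 19 of all 127 passed (15%), 12 higher in db/db (9.45%) and 7 lower (5.51%). By SAM, the method named in the series text, 0 members and 20 of 127 miRNAs (15.7%) were called. At an unadjusted p under 0.05 there was 1 member, miR-93, against 33 of 127 miRNAs (26%). The strains did not overlap in 1 member of 7, again miR-93, and in 29 of 127 miRNAs (22.8%), of which 20 (15.7%) were higher in db/db, as miR-93 was. The median log2 fold change, db/db minus db/+, was 0.050 over the tested members and 0.15 over all tested miRNAs. The number of animals limits the precision: the 95% intervals ran from -0.60 to 0.17 for miR-19b, the narrowest, and from -1.15 to 0.25 for miR-19a, the widest.

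**Figure D1:**
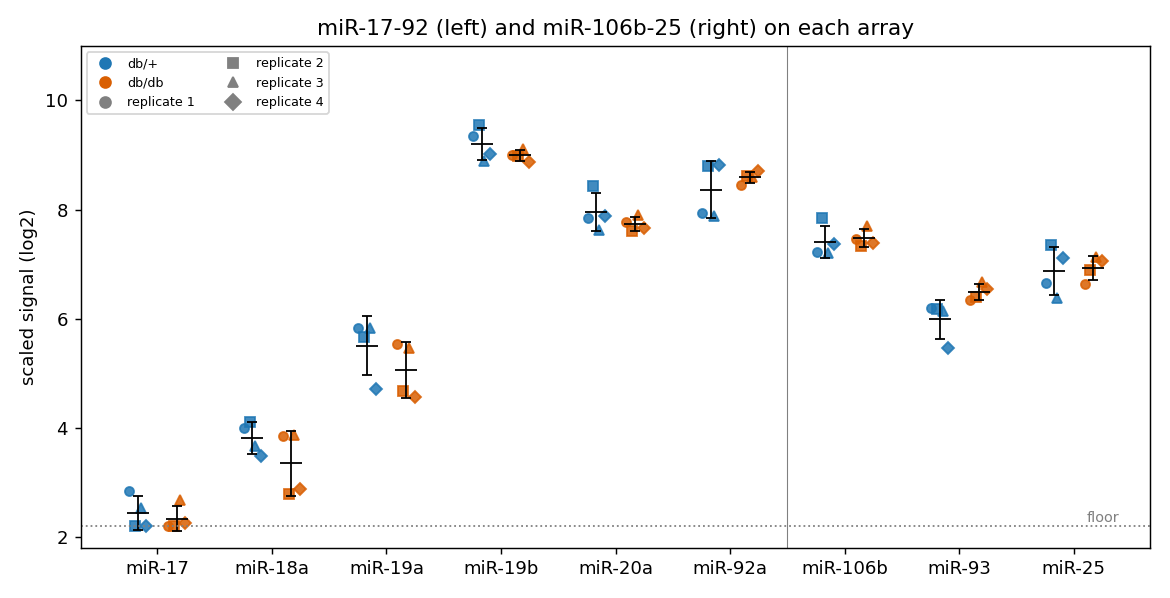
Log2 scaled signal of the 9 members on each of the 4 db/+ and 4 db/db arrays, 1 point per animal, with the strain's mean and SD. miR-17 lies at or near the floor of 2.20 in most animals, and among the 7 tested members the strains are apart only for miR-93, whose 4 db/+ values (5.46 to 6.20) all lie below the db/db values (6.34 to 6.67).

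miR-17, the name-giving member of the first cluster, was close to the limit of the array. Its level was 2.84, 2.20, 2.53 and 2.20 in db/+ replicates 1 to 4 and 2.20, 2.20, 2.68 and 2.24 in db/db replicates 1 to 4. It was detected on 1 array, db/+ replicate 1, which was also the brightest, and 2 animals of each strain lay at the floor. The probes for miR-17 read only its last 13 or 14 bases, the shortest stretches among the members, and the array files assign the shorter probe to miR-106a as well; the part of the probes in this low signal was not tested. The mean was 2.44 ± 0.31 in db/+ and 2.33 ± 0.23 in db/db (SD, n = 4), and no fold change is given.

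miR-18a, whose seed differs from that of miR-17 by 1 base, was also dim. It stood at 4.00, 4.10, 3.66 and 3.48 in db/+ and at 3.85, 2.78, 3.87 and 2.88 in db/db. It was detected in 3 db/+ and 2 db/db animals, and the strains overlapped. The means were 3.81 ± 0.29 and 3.34 ± 0.60, a difference of -0.47. Among the alternatives computed for it, only the authors' deposited scores reversed the direction, at 0.23. Without db/db replicate 2 the difference was smaller, at -0.28. With a higher floor all values of miR-18a lay at the floor.

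The miR-19 pair accounts for much of the tumour-promoting activity of the cluster in lymphoma. miR-19a stood at 5.83, 5.67, 5.82 and 4.71 in db/+ and at 5.54, 4.67, 5.46 and 4.57 in db/db. Its db/db animals split into a higher pair (replicates 1 and 3) and a lower pair (replicates 2 and 4), and the dimmest db/+ array, replicate 4, lay with the lower pair. On that array the lowest signal of any detected miRNA was 4.70, just under the value of miR-19a, which was not detected there. The log2 fold change was -0.45 ± 0.31 (SE; 95% interval -1.15 to 0.25, adjusted p = 0.353). Without db/+ replicate 4 it was -0.71 (adjusted p = 0.0941), without db/db replicate 4 -0.28 (adjusted p = 0.651), and on the authors' deposited scores -0.15 (adjusted p = 0.865).

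miR-19b stood at 9.35, 9.55, 8.90 and 9.02 in db/+ and at 9.002, 8.99, 9.11 and 8.86 in db/db. The db/db values lay within a narrow band inside the range of the db/+ values, except the lowest. The log2 fold change was -0.21 ± 0.17 (SE; -0.60 to 0.17, adjusted p = 0.411), -0.096 without db/+ replicate 2, -0.10 with normexp and -0.34 with 75th percentile scaling.

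miR-20a, the member closest to miR-17 in sequence within the cluster, stood at 7.85, 8.44, 7.63 and 7.89 in db/+ and at 7.78, 7.60, 7.90 and 7.66 in db/db. db/+ replicate 2 was the highest and the other animals of both strains overlapped. The log2 fold change was -0.22 ± 0.19 (SE; -0.63 to 0.20, adjusted p = 0.444). It was -0.054 without db/+ replicate 2 (adjusted p = 0.841), -0.32 without db/+ replicate 3 and -0.42 with quantile normalization. miR-20a and miR-19b moved almost alike: their difference within an array changed by -0.0048 ± 0.099 (SE) between the strains, two-sided exact permutation p = 0.971.

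miR-92a, which is known to target integrin subunit alpha 5 in blood vessels, was the tested member of miR-17-92 with a positive fold change. It stood at 7.95, 8.80, 7.88 and 8.82 in db/+ and at 8.45, 8.61, 8.60 and 8.70 in db/db. The db/+ animals fell into a low pair (replicates 1 and 3) and a high pair (replicates 2 and 4) on either side of all db/db animals. The log2 fold change was 0.23 ± 0.24 (SE; -0.31 to 0.76, adjusted p = 0.552). It was 0.089 without db/+ replicate 1 and 0.067 without replicate 3, the low pair, and 0.37 without replicate 2 and 0.38 without replicate 4, the high pair.

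In the second cluster, miR-106b, which represses the cell cycle inhibitor p21, stood at 7.21, 7.84, 7.20 and 7.37 in db/+ and at 7.46, 7.33, 7.71 and 7.39 in db/db. The strains overlapped, with db/+ replicate 2 the highest of all. The log2 fold change was 0.065 ± 0.18 (SE; -0.34 to 0.47, adjusted p = 0.851). miR-25 stood at 6.65, 7.36, 6.38 and 7.11 in db/+ and at 6.63, 6.90, 7.12 and 7.06 in db/db, and db/+ animals were both the highest and the lowest. Its log2 fold change was 0.050 ± 0.23 (SE; -0.46 to 0.56, adjusted p = 0.909). The sign of both depended on the scaling, as given in the closing section.

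miR-93 had the largest positive fold change of the tested members as processed here, while miR-92a lay above it without db/+ replicate 4 (0.38 against 0.32), with array weights (0.55 against 0.36), with normexp (0.24 against -0.052) and on raw median intensity (0.27 against 0.077). It stood at 6.20, 6.18, 6.14 and 5.46 in db/+ and at 6.34, 6.39, 6.67 and 6.55 in db/db. Every db/db animal lay above every db/+ animal, and the gap between the strains was narrow next to the distance of db/+ replicate 4 from the other controls. The means were 5.99 ± 0.36 and 6.49 ± 0.15 (SD, n = 4), a log2 fold change of 0.50 ± 0.19 (SE; 0.063 to 0.93) or 1.41-fold, with a limma p of 0.0287 and an adjusted p of 0.140. It was well above background on 3 of the 4 db/+ arrays and on all db/db arrays. Without db/+ replicate 4 the log2 fold change was 0.32 (adjusted p = 0.147). The authors' deposited scores, converted to log2 with an estimated base, gave 0.74 with an adjusted p of 0.0409, past the threshold, where 4.8% of 125 miRNAs were called. With normexp background correction and an offset of 50, in place of the scanner's own correction, the value was -0.052 (adjusted p = 0.888). The median of all tested miRNAs was then -0.18, and the part of the offset was not tested. Over all alternatives to the reported processing the adjusted p of miR-93 lay between 0.0409 and 0.993.

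**Figure D2:**
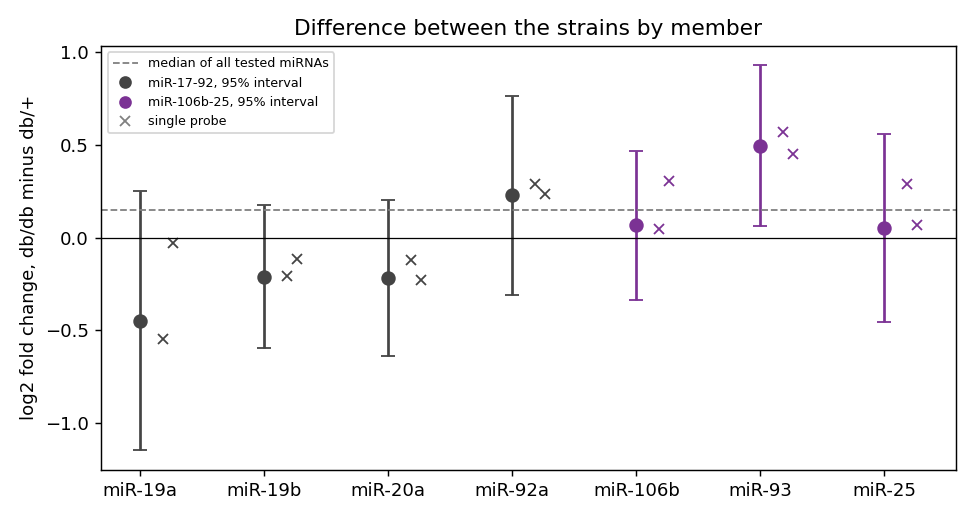
Log2 fold change (db/db minus db/+) of the 7 tested members with 95% intervals, dark for miR-17-92 and purple for miR-106b-25; crosses are single probes and the dashed line is the median of all 127 tested miRNAs, 0.15. The interval of miR-93 (0.063 to 0.93) lies above 0, and those of the other 6 span it. The dimmer probes of miR-19a, miR-93 and miR-25 were at the floor on db/+ replicate 4.

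Each member was read by 2 probes of 10 spots each, and the probes stop at different points of the same 3′ stretch. The fold changes of the 2 probes were 0.29 and 0.23 for miR-92a, 0.57 and 0.45 for miR-93 and -0.54 and -0.029 for miR-19a. The dimmer probes of miR-19a, miR-93 and miR-25 were at the floor on db/+ replicate 4 and well above background on only 3, 2 and 3 of the 8 arrays, so the sign of their fold changes is not a second measurement of these members. For miR-25 the dimmer probe gave 0.29, with 4.34, 4.17 and 4.88 on the other db/+ arrays against a db/db mean of 4.18.

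Other processing moved single members past the threshold in 2 settings. Array weights, which give less weight to more variable arrays, called 2 of the 7 members, miR-19a lower in db/db (-0.83, adjusted p = 0.0393) and miR-92a higher (0.55, adjusted p = 0.0334), where 33.1% of all tested miRNAs were called. The authors' scores called miR-93 alone among the members.

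**Figure D3:**
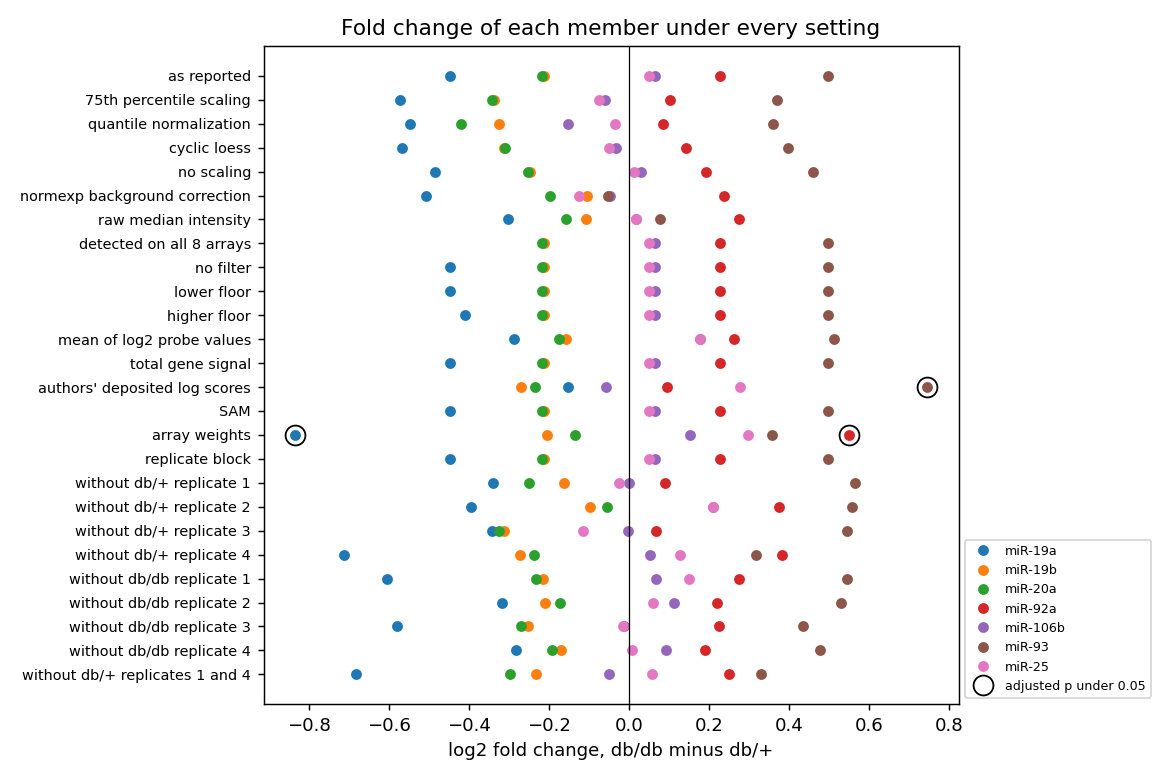
Log2 fold change (db/db minus db/+) of the 7 tested members under the reported processing and each alternative, 1 line per setting; circled points passed an adjusted p of 0.05. miR-19a, miR-19b and miR-20a stay below 0 and miR-92a above it. miR-106b and miR-25 cross 0, and miR-93 lies below 0 with normexp only (-0.052). The circled points are miR-93 on the authors' scores (0.74) and miR-19a (-0.83) and miR-92a (0.55) with array weights.

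The clusters were then set against each other within each animal, where the scaling factor cancels. The mean over the 4 tested members of miR-17-92 was 7.76 ± 0.25 in db/+ and 7.59 ± 0.16 in db/db, a change of -0.16 ± 0.15 (SE). The mean over the 3 members of miR-106b-25 was 6.76 ± 0.25 and 6.96 ± 0.16, a change of 0.20 ± 0.15 (SE). In both cases the strains overlapped. Without db/+ replicate 2 the changes were -0.042 and 0.33, and without db/db replicate 3 that of miR-106b-25 was 0.14. With 75th percentile scaling they were -0.29 and 0.078, and with quantile normalization -0.30 and 0.058. The difference of the means, miR-106b-25 minus miR-17-92, was -1.06, -0.99, -0.98 and -0.96 in db/+ and -0.88, -0.60, -0.60 and -0.45 in db/db. Only its change between strains can be read, since the size itself depends on the probes. All db/db animals lay above all db/+ animals, and the SD was 0.040 in db/+ and 0.18 in db/db. The change was 0.37 ± 0.091 (SE, n = 4 and 4), or 1.29-fold, and no p-value is given because the members were chosen with earlier results of these data known. Lack of overlap was common in such differences. It held for 23.7% of the 8001 within-array differences between single tested miRNAs, and no share was computed for differences of means.

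The size of this shift, and whether the strains overlapped, depended on single members and on the background correction. Without miR-93 it was 0.22 ± 0.14, without miR-19a 0.27 ± 0.095, and without miR-92a 0.50 ± 0.15, and in each of these cases the strains overlapped. Without both miR-93 and miR-19a it was 0.12 ± 0.061. Leaving out miR-106b, miR-25, miR-19b or miR-20a gave 0.43, 0.44, 0.35 and 0.35, with no overlap. With normexp background correction and its offset of 50 the shift was 0.068, and on raw median intensity 0.11. Leaving out any single array gave 0.31 to 0.45, and leaving out the brightest and the dimmest db/+ arrays together (replicates 1 and 4) gave 0.35.

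**Figure D4:**
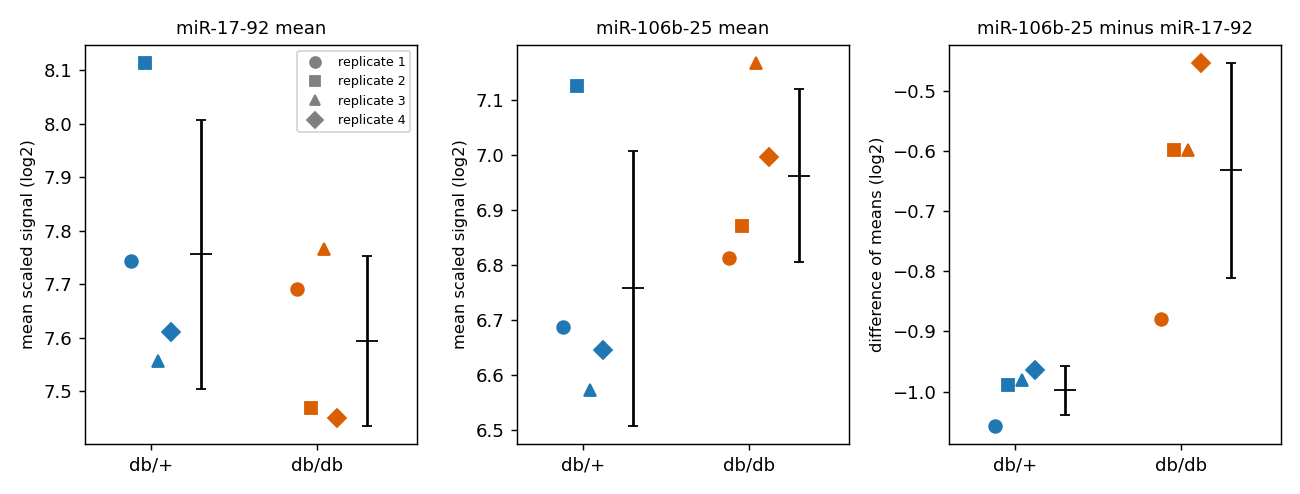
Mean log2 scaled signal of the tested miR-17-92 members (left) and miR-106b-25 members (middle), and the difference of these means within each animal (right), with 1 marker per animal and bars for the mean and SD of 4. The strains overlap in both means, while in the difference the db/+ animals (-1.06 to -0.96) all lie below the db/db animals (-0.88 to -0.45). The strains also did not overlap in 23.7% of the within-array differences between single tested miRNAs.

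Grouped by seed instead of by cluster, the mean of every family overlapped between the strains, as both cluster means had. The mean of the detected miR-17 seed members (miR-20a, miR-106b and miR-93) changed by 0.11 ± 0.15 (SE), that of the miR-19 seed pair by -0.33 ± 0.23, and that of the pair with seed AUUGCAC (miR-92a and miR-25) by 0.14 ± 0.25. Within the miR-17 seed, miR-20a lay on the negative side and miR-106b and miR-93 on the positive side. Of the 21 pairs of tested members, 4 had a within-array difference whose strains did not overlap (19%), against 1897 of the 8001 pairs of all tested miRNAs (23.7%). These 4 each join a miR-106b-25 member to a miR-17-92 member: miR-93 with miR-19a, miR-19b and miR-20a, and miR-106b with miR-20a. Pairs that join the clusters were also the more common kind among the 21. The 4 pairs reuse miR-93 and miR-20a, so they are not separate observations, and their share was not above that of all pairs. Their two-sided exact permutation p was 0.0286, the smallest that 4 against 4 allow, and 0.15 after Benjamini-Hochberg adjustment over the 21 pairs. Any pair without overlap gets this p, so it restates the lack of overlap and is no further support. The members were also chosen with earlier results of these data known.

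The pair miR-106b and miR-20a shares the seed AAAGUGC and was the tightest of the 4. miR-106b minus miR-20a was -0.64, -0.60, -0.42 and -0.52 in db/+ and -0.32, -0.27, -0.19 and -0.27 in db/db. The change was 0.28 ± 0.054 (SE), with every db/db animal above every control. For miR-93 the changes were 0.94 ± 0.28 against miR-19a, which was not detected on db/+ replicate 4, 0.71 ± 0.19 against miR-19b and 0.71 ± 0.24 against miR-20a. Within miR-106b-25, miR-25 minus miR-106b changed by -0.015 ± 0.16 (SE). With normexp the members' own fold changes were -0.052 (miR-93), -0.047 (miR-106b), -0.10 (miR-19b), -0.20 (miR-20a) and -0.51 (miR-19a). All 4 pairs therefore changed less with normexp than as reported.

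Members varied with array brightness among the controls, and in different directions. On both dimmer db/+ arrays (replicates 2 and 4) miR-92a, miR-25, miR-20a and miR-106b had a higher scaled signal than on both brighter ones (replicates 1 and 3), as did 61 of the 127 tested miRNAs (48%). The mean gaps were 0.90 for miR-92a, 0.72 for miR-25, 0.42 for miR-20a and 0.40 for miR-106b. miR-19a was lower on both dimmer arrays by a mean gap of -0.64, as were 25 of 127 miRNAs (19.7%), and it was not detected on replicate 4. miR-19b and miR-93 overlapped between the dimmer and the brighter arrays. The SD over animals was smaller in db/db than in db/+ for all 7 tested members and for 83.5% of the 127 tested miRNAs. The part of array brightness in the differences between strains was not tested.

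**Figure D5:**
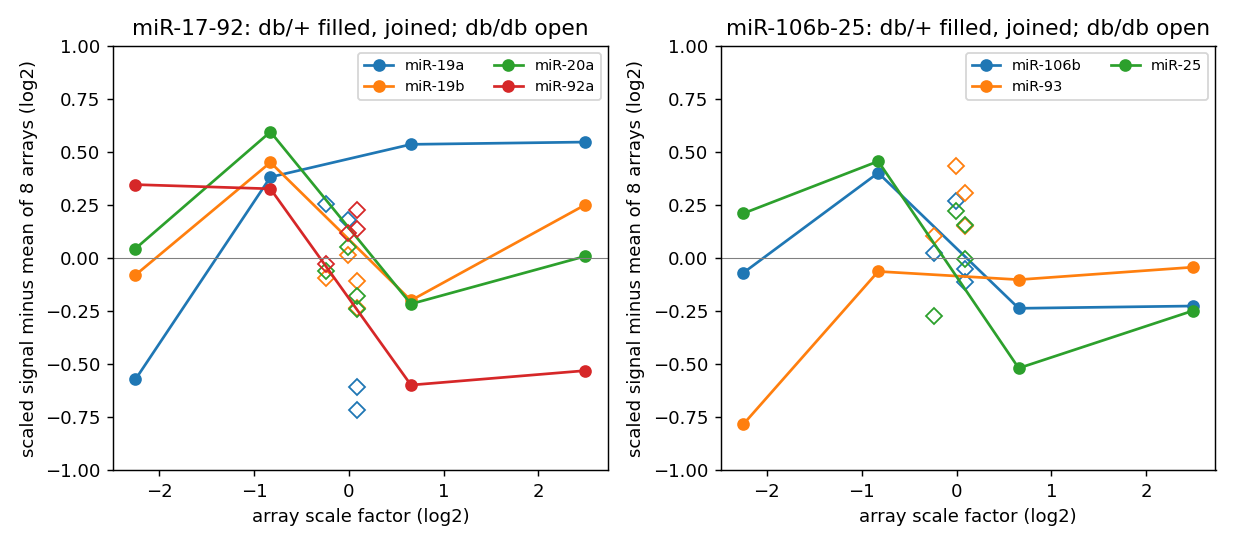
Scaled signal of each tested member minus its mean over the 8 arrays (log2), against the log2 scale factor of the array, for miR-17-92 (left) and miR-106b-25 (right); filled, joined points are db/+ and open diamonds db/db. The db/db arrays lie close together on the brightness axis, while among the db/+ arrays miR-92a and miR-25 are higher on the 2 dimmer arrays and miR-19a is lower there.

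The relatives of the clusters were mostly below detection. Of the 7 passenger strands on the array, the less abundant arms of the same hairpins, 1 was detected, miR-17*. It stood at 3.75, 3.25, 3.64 and 2.20 in db/+ and at 3.34, 3.66, 3.85 and 3.63 in db/db, and was detected on 5 arrays, while the main arm miR-17 was detected on 1. The probes of miR-17* read its last 14 or 15 bases and those of miR-17 its last 13 or 14, so their levels cannot be ranked. The 3′ stretches are shown with the bases read by the longer probe in capitals, because miR-17 and miR-106a, which differ at 1 position, share their last 13 bases.
miR-17: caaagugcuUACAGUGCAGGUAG
miR-106a: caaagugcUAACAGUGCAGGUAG
miR-17*: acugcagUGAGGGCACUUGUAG
miR-20a: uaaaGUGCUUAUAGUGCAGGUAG
miR-20b: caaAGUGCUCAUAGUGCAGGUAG

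miR-106a and miR-20b belong to the miR-106a-363 cluster on the X chromosome, the third copy of this family. Of the 5 products listed for it on the array, 2 were detected. The list leaves out miR-19b and miR-92a, whose second gene copies lie on the X chromosome. miR-106a was detected on 1 array, db/+ replicate 1, as was miR-17. miR-20b stood at 6.02, 6.12, 6.40 and 5.43 in db/+ and at 5.85, 5.52, 5.88 and 5.61 in db/db. The strains overlapped, and the log2 fold change was -0.28 ± 0.21 (SE; -0.75 to 0.19, adjusted p = 0.393), beside -0.22 for miR-20a, with which it shares the last 13 bases. Among other miRNAs with the AUUGCAC seed, miR-32 was detected on 1 array with a signal at the floor, and miR-92b and miR-367 on none. Of 11 products of the miR-290 and miR-302 clusters of embryonic stem cells, which carry a similar seed, 0 were detected.

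The miRNAs whose values followed each cluster most closely over the 8 arrays were named by the root mean square difference of centred values among 83 candidates. For the miR-17-92 mean they were miR-100 (0.13), miR-15a (0.13) and let-7i (0.16), where the median of all candidates was 0.35. For the miR-106b-25 mean they were miR-152 (0.097), let-7g (0.13) and miR-100 (0.14), where the median was 0.30. The means of the clusters differed from each other by 0.21 on the same measure. None of these 5 miRNAs passed the test between strains (adjusted p of 0.271 to 0.996, limma). They were picked by the same values, strain difference included, so this outcome was largely set by the choice.

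Markers of some other cell types differed between the strains. Of 5 leukocyte miRNAs detected, 2 were tested and both fell in db/db, miR-142-3p by 1.10 (adjusted p = 0.0164) and miR-223 by 0.74 (adjusted p = 0.0434), and miR-150 was at the floor on every array. The summed list lay at 8.56 to 8.97 in db/+, above its 7.65 to 8.16 in db/db. Of the bile duct list, all 5 were detected on at least 1 array but none on all 8, and 2 were tested. miR-200b rose by 0.81 (limma adjusted p = 0.00788), while miR-200a, at 0.64, did not pass (adjusted p = 0.228). Both were detected in 4 db/db but only 3 db/+ animals, so they entered the test through the strain where they were higher. The p of miR-200b is limited by that filter. On db/+ replicate 4 miR-200b stood at 4.29, under the lowest detected level of that array (4.70). Without a test, miR-429 differed by 0.25, miR-200c by -0.21 and miR-141 by -0.22. The summed list lay at 5.97 to 6.10 in db/+ and at 6.25 to 6.70 in db/db. No tested endothelial, erythroid, stellate or hepatocyte marker passed. Members of miR-17-92 are expressed in leukocytes and other cells, and the part of cell composition in the values above was not tested.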

How the data were processed

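Total liver RNA (100 ng per animal) was labelled with Cy3 and put on 1-colour mouse miRNA arrays from Agilent, per the labels' protocols. Spot intensity was taken from scanner files that the authors deposited; Feature Extraction 9.5.3.1 is named per the file headers and 9.3.5 in the series text. Per the file headers, processed intensity was background-subtracted, with no scaling across arrays. Flags for detection, background, saturation and outliers are 0 or 1, per the file headers. The deposited score of 139 miRNAs (8 of the 9 members, without miR-17) is a global median normalized log value, per the series text. Its base is not given in the sources used here. It was estimated as 20, so fold changes from the score rest on that estimate. The deposited value table equalled the raw median intensity of the scanner files.

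Control and outlier spots (3.42% to 4.84% of 11540) were left out, and none was saturated. Spots were averaged per probe and probes per miRNA on the linear scale. Arrays were scaled to the median of the 89 miRNAs that all 8 arrays detected, and values were floored at a scaled signal of 4.59, the median over arrays of the lowest detected signal, before log2. Floored values are equal, which can understate differences of dim miRNAs. The lowest detected levels (log2) lay above the floor on db/+ replicates 2 and 4 (3.71 and 4.70) and on db/db replicates 1 and 2 (2.60 and 2.80). Strains were compared with limma 3.58.1 in R 4.3.3 (two-sided, strain as the only term, Benjamini-Hochberg over 127 miRNAs). Well above background means more than 0.5 of the spots of a probe. Errors of cluster means and pairs are SE over animals. The procedure was tested on simulated data. Sequences were read from RefSeq (GRCm38.p6) for 12 of 12 names looked up, and positions from the array files (mm9). Figures were drawn with matplotlib 3.10.9.

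All 9 members, every detected relative of the fixed lists and the 3 closest miRNAs per cluster were to be named. The members and lists were chosen with earlier results of these data known. Replicate numbers 3 and 4 are shared by both strains in the titles; numbers 1 and 2 of db/+ were given in accession order. Alternatives changed the scaling, background correction, floor, filter, summary of probes, test and arrays used. The normexp alternative also added an offset of 50 to the intensity of every spot before scaling, which weighs most on dim miRNAs. The part of this offset in the normexp values was not tested.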

Additional observations from a re-analysis of the deposited data

Results flagged for a closer look

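In 24 groups of 4 animals checked, 3 had an animal far from the other 3, by the ratio of its gap to the range of the group (threshold 0.829); chance gives about 1 in 20 groups. miR-93 in db/+ replicate 4 had a ratio of 0.921, at 5.46 against 6.14 for the nearest control. miR-19a in the same animal had a ratio of 0.852, at 4.71 against 5.67. This was the dimmest array, where the dimmer probe of each of these miRNAs lay at the floor. miR-17 in db/db replicate 3 had a ratio of 0.907, at 2.68 against 2.24, and was not detected there.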

How the results depend on the processing

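The number of miRNAs past the threshold, 19 (12 higher, 7 lower in db/db), was 0 without scaling, 2 with normexp, 1 on raw median intensity, 4 without a filter, 12 with a higher floor, 6 on the authors' scores, 42 with array weights, and 10 to 21 with 1 array left out. It was 10 without db/db replicate 2 and 12 without db/db replicate 3. The split was 6 higher and 8 lower with 75th percentile scaling, 9 and 8 with quantile normalization and 10 and 11 with cyclic loess. These 3 scalings shifted the median of all miRNAs by -0.13, -0.13 and -0.12. Tested members past the threshold were 0 except under 2 alternatives: 1 on the authors' scores (miR-93) and 2 of 7 with array weights, miR-19a at -0.83 (adjusted p = 0.0393) and miR-92a at 0.55 (adjusted p = 0.0334), where 33.1% of all miRNAs passed.

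miR-106b turned negative with 75th percentile scaling (-0.060), quantile normalization (-0.15), cyclic loess (-0.033), normexp (-0.047), on the authors' scores (-0.058) and without db/+ replicates 1 and 4 (-0.050), and ran from -0.013 to 0.21 with 1 array left out. miR-25 turned negative with 75th percentile scaling (-0.076), quantile normalization (-0.034), cyclic loess (-0.049) and normexp (-0.13), and ran from -0.11 to 0.21 with 1 array left out. Relative to the median of all miRNAs, miR-106b was at -0.085 and miR-25 at -0.10 both as reported and with 75th percentile scaling. miR-93 turned to -0.052 with normexp, which shifted that median by -0.33; relative to it miR-93 was at 0.12, beside 0.35 as reported. normexp also gave -0.075 for the miR-106b-25 mean and 0.068 for the shift between the clusters, which was 0.11 on raw median intensity. The signs of miR-19a, miR-19b, miR-20a and miR-92a held under every alternative run. Beyond the effect of the scalings on the median, the cause of these changes was not tested.

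The fit with the shared replicate numbers 3 and 4 as a block (replicate block) gave 18 miRNAs and 0 members past the threshold; deviations from the strain means correlated at 0.036 and 0.31 for the same number, and the animals share only a number. Scaling to the median over all miRNAs was not run, because that median was above 0 on only 5 arrays. Dim signal limits miR-17 and miR-18a.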
